A study of Mus musculus and Macaca mulatta with 39 samples.

Results

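Loci that carried a called H3K4me2 region in frontal cortex of E17.5 mouse embryos but not in cortex at E14.5, and the reverse, were described here. A locus is a stretch of an autosome made by merging the overlapping H3K4me2 regions of 4 region lists, namely E17.5 frontal cortex replicates 1 and 2 and E14.5 cortex replicates 1 and 2. A gained locus had a region in both frontal lists and in neither E14.5 list. A lost locus had a region in both E14.5 lists and in neither frontal list. Of 57107 autosomal loci, 4640 were gained (8.13%), 611 were lost (1.07%) and 27278 were constant (47.8%), which means present in all 4 lists. The other loci were present in a mixture of lists, and 23.7% of all loci were seen in 1 list only.

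The series profiled histone marks in developing cortex of mouse and rhesus by chromatin immunoprecipitation and sequencing, and its labels list 39 samples, of which the 16 mouse region lists were used. The mouse tissue came from embryos of timed pregnancies, with 2 biological replicates of each of 4 tissues: frontal and occipital cortex at E17.5, cortex at E14.5, and cortex at E11.5. No treatment or mutation was named for any of them, and E stands for embryonic day. Each replicate was precipitated for H3K27ac and for H3K4me2 and shared 1 input, so the marks of a replicate are not separate tissue samples. The labels call the E14.5 tissue cortex and the E17.5 tissue frontal cortex, so stage and cortical area cannot be told apart. The tissue was bulk cortex, and a region that appears because more cells carry the mark cannot be told apart from one that appears because each cell carries more of it.

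H3K4me2 is a dimethylation of histone H3 that lies at promoters and at enhancers, both those in use and those that are poised. H3K27ac is an acetylation of the same histone that marks promoters and enhancers in active use. Between these stages the mouse cortex passes from the middle of neurogenesis, when progenitors produce deep-layer neurons and begin on upper-layer neurons, to its end, when neurons mature and gliogenesis starts.

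The deposited files hold positions only, so the measured quantity was the length in bp that a list covers at a locus. The frontal H3K4me2 lists held 48440 and 41812 autosomal regions covering 102 and 87.2 Mb, against 31577 and 43834 regions covering 63.5 and 92.2 Mb at E14.5. E14.5 replicate 1 thus stood apart as the shortest of the 4 lists, and read depth is unknown for all of them. Nothing in the labels ties the replicates to named animals or litters. The smallest p that an exact permutation test of 2 lists against 2 lists can give is 0.333.

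The count of gained against lost loci changed with the lists and regions used, and most when that short list was left out. With E14.5 replicate 1 left out, 5000 loci were in both frontal lists and not in the remaining E14.5 list, and 5669 were in the remaining E14.5 list and in neither frontal list, so that gained loci made up 46.9% of both classes. With all 4 lists they made up 88.4%. When each list was cut to its 31577 widest regions, 1932 loci were gained and 1312 were lost, or 59.6% gained. Without E14.5 replicate 2 the counts were 10862 gained and 1521 lost, without frontal replicate 1 they were 6651 gained and 1678 lost, and without frontal replicate 2 they were 10550 gained and 737 lost. Leaving out a list drops a condition from the rule, so the counts of its class rise by construction. Regions of at least 1000 bp gave 2429 gained and 146 lost loci. Gained loci were 94.3% of both classes there. Starts in the E14.5 replicate 1 list are offset by 1 bp from the grid of the other 3 H3K4me2 lists, and whether it was called in the same way was not tested. The cause of these moves was not tested either.

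**Figure D1:**
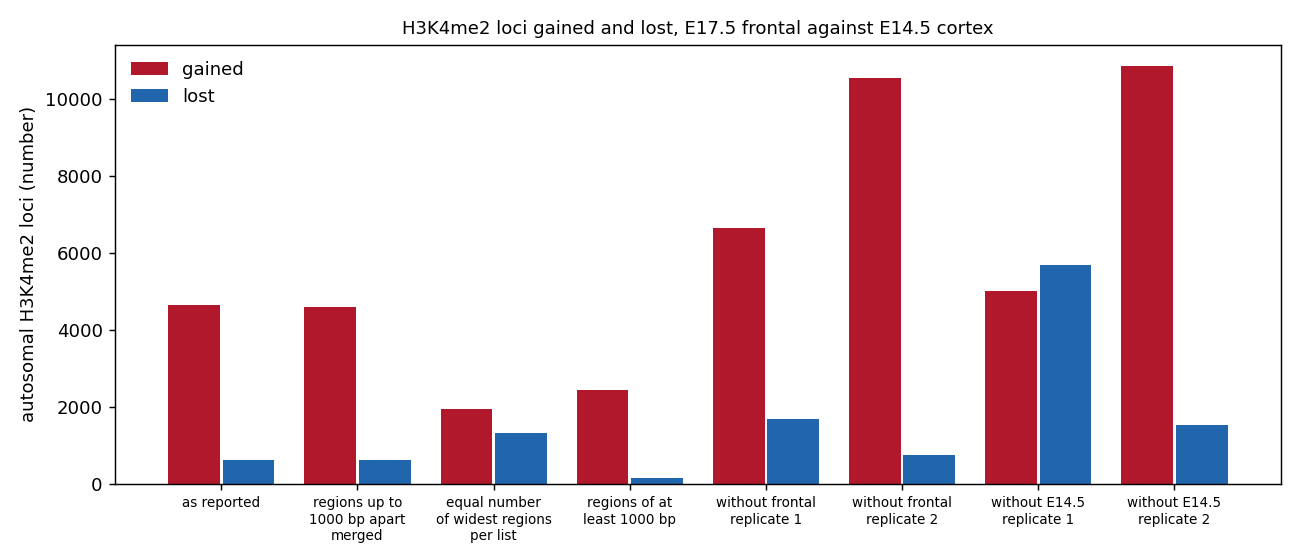
Number of autosomal H3K4me2 loci gained (red) and lost (blue) in E17.5 frontal against E14.5 cortex, as counted from all 4 lists and under 7 other ways of forming them. The vertical axis counts loci. As reported, 4640 loci were gained and 611 lost, and without E14.5 replicate 1 the counts were 5000 gained and 5669 lost.

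Gained and lost loci were about as wide as other loci in 2 of the 4 lists. A gained locus had a median width of 1050 bp, with quartiles of 900 and 1250 bp, and a lost locus one of 1026 bp, with quartiles of 874 and 1275 bp, while a constant locus had one of 2550 bp and all loci one of 1400 bp. The loci in 1 list of each stage had median widths of 824 to 1025 bp. Among gained loci 208 (4.48%) were wider than 2000 bp, as were 32 lost loci (5.24%) and 64.1% of constant loci. Gained loci spanned 5.32 Mb and held 4.74% and 4.68% of the length of the frontal lists. Lost loci spanned 0.703 Mb and held 0.673% and 0.704% of the length of the E14.5 lists.

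Loci just outside the rule were more numerous than those inside it. There were 6518 loci in both frontal lists and in 1 E14.5 list, of which 6160 were in replicate 2 and 358 in the short replicate 1. There were 1177 loci in both E14.5 lists and 1 frontal list, of which 1054 were in frontal replicate 1 and 123 in replicate 2. Their median widths were 1275 bp for the first kind and 1225 bp for the second.

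The 10 widest gained loci were those with the largest covered length in the shorter of their frontal values, and they show what such a locus looks like in each list. All of them had 0 bp of H3K4me2 in both E14.5 lists, as the rule requires, and between 2625 and 3950 bp in the frontal lists. Their H3K27ac, which the rule did not use, came in several forms.

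At chr1:56991101-56996750 (mm9, as are all positions here), H3K4me2 covered 3950 and 3125 bp in frontal replicates 1 and 2, and H3K27ac had no region in any of the 8 mouse lists. No H3K4me2 region lay there in either occipital list or in either E11.5 list. Among the 10 widest gained loci this was the one with H3K4me2 in frontal cortex alone and no acetylation at all. Only 71 of the 4640 gained loci (1.53%) had no region of either mark in any list but the 2 frontal H3K4me2 lists.

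At chr2:172177801-172181400, H3K4me2 covered 3600 and 3125 bp in the frontal replicates, and H3K27ac covered all 3600 bp in both frontal lists and in both E14.5 lists. Acetylation was thus already complete at E14.5, where no H3K4me2 region was called. H3K4me2 covered 875 and 3350 bp there in occipital cortex and 0 bp in both E11.5 lists.

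At chr6:5689276-5692575, H3K4me2 covered 3300 and 3100 bp in the frontal replicates, and H3K27ac covered 1074 and 3300 bp in frontal cortex against 0 bp in both E14.5 lists. The H3K27ac values did not overlap between the stages, and the log2 change was 3.40 (SE 0.66, limma adjusted p = 0.36), which did not pass the threshold. At chr4:12909001-12912275, H3K4me2 covered 3275 and 2725 bp in the frontal replicates, with 800 and 2825 bp of H3K27ac in frontal cortex and 0 bp in both E14.5 lists. These were the 2 of the 10 widest gained loci with H3K27ac in both frontal lists and in no E14.5 list.

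The widest gained locus by the rule, chr3:67867876-67871225, had 3275 and 3225 bp of H3K4me2 in the frontal replicates and 0 and 3225 bp of H3K27ac, so the frontal replicates themselves differed in the second mark. Its E14.5 lists had 0 bp of H3K27ac. At chr7:37116176-37119625, H3K4me2 covered 3450 and 3100 bp in the frontal replicates, and H3K27ac covered all 3450 bp in both, against 525 and 0 bp at E14.5. That locus was also covered over its full 3450 bp by H3K4me2 in both occipital lists and had 0 bp in both E11.5 lists.

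At chr1:43599626-43602925 the frontal H3K4me2 values were 3300 and 3050 bp, and H3K27ac covered 3300 bp in both frontal lists against 0 and 550 bp at E14.5. At chr5:132242426-132245525, chr13:46027351-46030275 and chr12:101195901-101198700, H3K27ac lay in both frontal lists and, of the E14.5 lists, in replicate 1 alone, with 2800, 1875 and 1600 bp there in that order. Over the 10 widest gained loci, 8 had H3K27ac in both frontal lists and 1 in both E14.5 lists, 5 had it in 1 E14.5 list and 4 in neither. Of all 4640 gained loci, 65.1% had it in both frontal lists and 26.3% in both E14.5 lists. None of the 10 widest gained loci passed the limma test for H3K27ac, with a lowest adjusted p of 0.36.

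The 10 widest lost loci had 1275 to 3725 bp of H3K4me2 in the E14.5 lists and none in the frontal lists. At chr19:44567627-44570600, H3K4me2 covered 2050 and 2950 bp in E14.5 replicates 1 and 2, and H3K27ac covered 0 bp in both frontal lists against 1074 and 2024 bp at E14.5. It was covered over its full 2974 bp in both E11.5 H3K4me2 lists and had 0 bp in both occipital lists. This locus therefore carried the mark at the earlier stages in every list and at E17.5 in none.

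At chr2:18236026-18239750, H3K4me2 covered 2000 and 3725 bp in the E14.5 replicates, with 0 bp of H3K27ac in both frontal lists against 3450 and 0 bp at E14.5. Its H3K4me2 was 0 bp in both occipital lists against 3500 and 3725 bp at E11.5. At chr5:54097151-54099975, H3K4me2 covered 2675 and 2825 bp in the E14.5 replicates, and H3K27ac covered 0 and 600 bp in frontal cortex against 2800 and 2425 bp at E14.5. The H3K27ac values of this locus did not overlap between stages, with a log2 change of -2.81 (SE 0.90, limma adjusted p = 0.71).

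At chr7:69567402-69568975, H3K4me2 covered 1500 and 1450 bp in the E14.5 replicates, and H3K27ac covered 0 bp in both frontal lists against 1574 and 1250 bp at E14.5. H3K27ac fell there, with a log2 change of -3.003 (SE 0.14, limma adjusted p = 0.033), the one call among the 10 widest lost loci. H3K4me2 was nevertheless present in all 4 lists of the other tissues, with 1374 and 1325 bp in occipital cortex against 1574 bp in both E11.5 lists. The locus thus had H3K4me2 in 6 of the 8 mouse lists and lacked it in the 2 frontal ones.

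At 3 other wide lost loci H3K27ac stayed about as long in frontal cortex as at E14.5. At chr7:139922552-139925900, H3K27ac covered all 3349 bp in each of the 8 mouse lists, while H3K4me2 covered 1275 and 3100 bp in the E14.5 replicates and 0 bp in frontal cortex. At chr11:80127501-80130375, H3K27ac covered all 2875 bp in both frontal and both E14.5 lists. At chr11:5155077-5157276, H3K27ac covered 2100 and 2149 bp in frontal cortex against 2200 and 1699 bp at E14.5, so the groups overlapped. The remaining 3 of the 10, on chromosomes 1 and 9, had less H3K27ac in both frontal lists than in either E14.5 list, and none was called. Over the 10 widest lost loci, 4 had H3K27ac in both frontal lists and 9 in both E14.5 lists. Of all 611 lost loci, 47.0% had it in both frontal lists and 66.9% in both E14.5 lists.

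**Figure D2:**
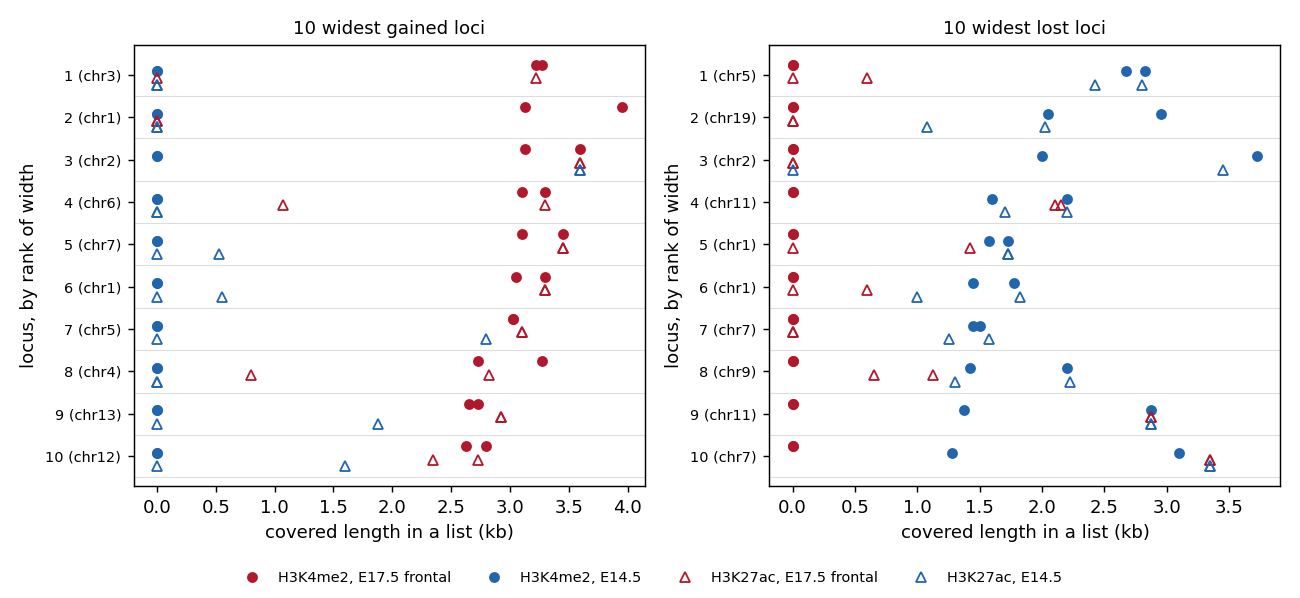
Covered length in kb (horizontal axis) in each list at the 10 widest gained loci (left) and the 10 widest lost loci (right), ranked from the top, with red for E17.5 frontal and blue for E14.5 cortex. Circles are H3K4me2 and triangles H3K27ac, with 1 symbol per replicate. The H3K4me2 circles at 0 follow from the rule, while the H3K27ac triangles of E14.5 range from 0 bp to 3600 bp at gained loci.

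The question that H3K27ac answers at these loci is whether a mark the rule did not use moves with H3K4me2 between the stages. At gained loci it was present more often in frontal than in E14.5 cortex. An H3K27ac region overlapped 69.3% and 79.9% of gained loci in frontal replicates 1 and 2, against 50.9% and 29.7% in E14.5 replicates 1 and 2. The means were 74.6 ± 7.51% in frontal cortex and 40.3 ± 15.0% at E14.5 (SD, n = 2 each), a difference of 34.3 points. Over all 57107 loci H3K27ac overlapped 77.8% and 79.0% in frontal cortex, against 76.7% and 64.9% at E14.5. The frontal share of gained loci was thus below that of all loci in replicate 1 and close to it in replicate 2, and both E14.5 shares were below it. At gained loci every frontal value was above every E14.5 value, and the exact two-sided permutation test gave p = 0.333, the smallest it can give.

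At lost loci the order was turned round. H3K27ac overlapped 59.7% and 61.7% of lost loci in the frontal replicates, against 86.1% and 68.2% in the E14.5 replicates. The means were 60.7 ± 1.39% in frontal cortex and 77.2 ± 12.6% at E14.5 (SD, n = 2 each), a difference of -16.4 points (exact permutation p = 0.333). The groups did not overlap, and the E14.5 lists differed from each other by about as much as the stages did. The difference was -7.53 points without E14.5 H3K27ac replicate 1, -25.4 points without E14.5 replicate 2, and -26.4 points with an equal number of the widest H3K27ac regions from each list.

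At constant loci H3K27ac overlapped 93.6% and 91.6% in frontal cortex against 94.9% and 87.8% at E14.5, so those groups overlapped. Their difference of 1.29 points was below the spread between the E14.5 replicates, and the exact permutation p was 1. It turned to -1.87 points when the same number of the widest H3K27ac regions was taken from each list and to -2.28 points without E14.5 H3K27ac replicate 2. The H3K27ac lists differ in length, and constant loci show how the shares move where H3K4me2 is in every list: 168 and 156 Mb in frontal cortex against 140 and 104 Mb at E14.5.

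The differences kept their signs when the classes were formed without the short E14.5 H3K4me2 list, an alternative chosen after the data were seen. H3K27ac then overlapped 70.0% and 80.1% of gained loci in frontal cortex against 52.6% and 30.8% at E14.5, a difference of 33.3 points. It overlapped 49.0% and 53.2% of lost loci in frontal cortex against 68.0% and 54.5% at E14.5, a difference of -10.1 points, with no overlap between the groups. On the loci merged from all 4 lists, these classes held 4998 gained and 5662 lost loci. Of the latter, 5051 were in E14.5 replicate 2 alone. That lost class is thus mostly other loci than the 611, and its difference is not a check of theirs. The gained class is the 4640 gained loci with 358 loci of E14.5 replicate 1 added. Its difference is thus nearly that of the same loci and is not a separate check either.

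Locus by locus, acetylation of gained loci was mixed. H3K27ac was in both frontal lists and in no E14.5 list at 814 gained loci (17.54%), against 4.68% of all loci. It was in all 4 lists at 1168 gained loci (25.2%) and in none of the 4 at 674 (14.53%), against 83.4% and 2.04% of constant loci. At 2521 gained loci (54.3%) at least 1 E14.5 list held an H3K27ac region, against 95.6% of constant loci. Only 8 gained loci (0.172%) had H3K27ac in both E14.5 lists and no frontal list, against 1.21% of all loci.

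Acetylation of part of the lost loci spanned both stages, at a lower share than in the other classes compared. H3K27ac was in all 4 lists at 51.7% of loci in both E14.5 lists and 1 frontal list. It was so at 53.2% of loci in both frontal lists and 1 E14.5 list, and the share of all loci was not computed. H3K27ac was in both E14.5 lists and in no frontal list at 51 lost loci (8.35%), against the same 1.21% of all loci, and in all 4 lists at 248 (40.6%). It was in none of the 4 lists at 60 lost loci (9.82%), and in both frontal lists and no E14.5 list at 5 (0.818%). All 8 mouse H3K27ac lists covered 129 lost loci (21.1%), compared with 179 gained loci (3.86%), and the share of all loci was not computed. Among constant loci, H3K27ac was in all 4 lists at 22751 (83.4%), in both frontal lists alone at 202 (0.741%) and in both E14.5 lists alone at 134 (0.491%).

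The extent of acetylation also differed between the stages at gained loci. Averaged over all gained loci, H3K27ac covered 701 and 848 bp per locus in the frontal replicates against 475 and 231 bp in the E14.5 replicates. The first H3K27ac region overlapping each gained locus had a median width of 2000 and 2100 bp in frontal cortex against 1425 and 975 bp at E14.5. At constant loci this width was 2125 and 2275 bp against 2325 and 1950 bp, which overlap. Where present, H3K27ac covered a median of 99.9% and 100% of the gained locus in frontal cortex, against 89.4% and 64.5% at E14.5. Over all lost loci H3K27ac covered 544 and 578 bp per locus in frontal cortex against 926 and 682 bp at E14.5. These lengths per locus do not overlap between stages at gained or at lost loci. At constant loci they were 2134 and 2172 bp in frontal cortex against 2293 and 1907 bp at E14.5, which overlap. Over all loci the median part covered where present was 83.0% and 90.0% in frontal cortex against 87.5% and 70.7% at E14.5. The first H3K27ac region overlapping each lost locus had a median width of 1650 and 1450 bp in frontal cortex against 2012.5 and 1475 bp at E14.5, which overlap.

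The test of H3K27ac at single loci used limma on log2(covered bp + 200), over the 43557 loci present in at least 2 of the 4 H3K4me2 lists, with Benjamini-Hochberg adjustment and a threshold of 0.05. A gained or lost locus is in 2 lists by definition, so every one was tested. H3K27ac was called higher in frontal cortex at 503 gained loci (10.8%) and lower at 3, against 2.08% higher and 0.544% lower over all loci tested. It was called lower at 32 lost loci (5.24%) and higher at 2. The median log2 change was 1.00 over gained loci, -0.14 over lost loci and 0.01 over all loci tested. Over gained loci it was 0.48 without frontal H3K27ac replicate 2 and 0.19 without E14.5 replicate 2, and 1.19 and 1.12 without the other list of each stage. Over lost loci it was 0 without frontal replicate 1 or E14.5 replicate 1, -0.080 without frontal replicate 2 and -0.38 without E14.5 replicate 2. With 1000 bp added in place of 200 bp it was 0.37 over gained and -0.079 over lost loci, and with equal list lengths 0.68 and -0.27.

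The calls were made of loci with H3K27ac at 1 stage only. At 491 of the 503 gained loci called higher, H3K27ac had 0 bp in both E14.5 lists, and at 293 the frontal replicates were within 50 bp of each other. At all 32 lost loci called lower it had 0 bp in both frontal lists. Covered length cannot exceed the width of the locus, so fully covered loci have equal replicates and a small error. With the replicate number as a block no locus was called in either direction, while 818 gained loci of 3033 loci in all had an unadjusted p below 0.05 in that fit. Without 1 H3K27ac list, the gained loci called higher numbered 1308 and 950 (frontal replicates 1 and 2 left out), and 1156 and 463 (E14.5 replicates 1 and 2 left out). Over all loci tested the numbers called higher were then 2564, 2250, 4299 and 1002. The lost loci called lower then numbered 48, 37, 55 and 92, in the same order of lists left out.

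**Figure D3:**
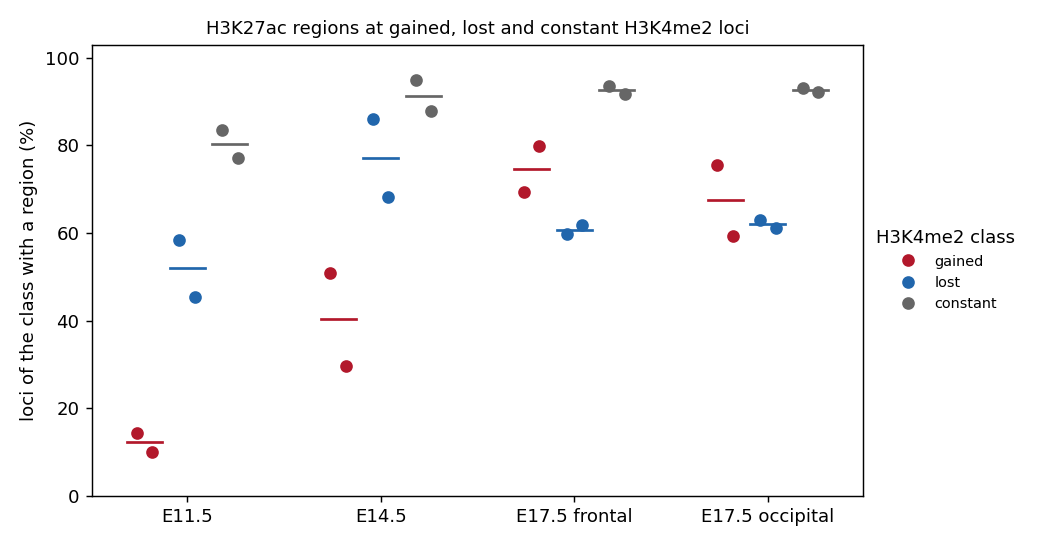
Share of gained (red), lost (blue) and constant (grey) H3K4me2 loci that an H3K27ac region overlaps, in % of the loci of a class, for each replicate (points) and its mean (line) in the 4 mouse tissues. Gained loci had 69.3% and 79.9% in E17.5 frontal cortex, against 50.9% and 29.7% at E14.5 and 14.4% and 10.0% at E11.5.

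The loci with the largest shift in mean H3K27ac length included several not among the widest. At chr17:5202076-5205700, gained in H3K4me2 with 3625 and 1425 bp in the frontal replicates, H3K27ac covered 3049 and 3450 bp in frontal cortex against 0 bp in both E14.5 lists. H3K27ac rose there by 4.11 on the log2 scale (SE 0.11, limma adjusted p = 0.011), the one call among the 5 gained loci with the largest shift. At chr8:110481301-110485600, H3K27ac covered 3724 and 3925 bp in frontal cortex against 1825 and 0 bp at E14.5, and at chr1:157194326-157199050 it covered 1525 and 4725 bp against 550 and 0 bp. Neither passed the test.

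Of the lost loci, chr1:174247426-174251025 had the largest shift, with 2100 and 0 bp of H3K27ac in frontal cortex against 3600 bp in both E14.5 lists. At chr2:71945476-71947225, H3K27ac covered 0 and 250 bp in frontal cortex against 1750 and 1700 bp at E14.5. At chr11:106128276-106130800 it covered 1400 and 0 bp in frontal cortex against 2525 and 2425 bp at E14.5. The values did not overlap at any of these 3 loci, which follows in part from choosing them by their H3K27ac difference, and none passed the test.

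Acetylation at the other mouse stages placed the same loci in a longer series. H3K27ac overlapped 14.4% and 10.0% of gained loci in the E11.5 replicates, 50.9% and 29.7% at E14.5, 69.3% and 79.9% in E17.5 frontal cortex and 75.6% and 59.2% in E17.5 occipital cortex. It overlapped 58.4% and 45.3% of lost loci at E11.5, 86.1% and 68.2% at E14.5, 59.7% and 61.7% in frontal cortex and 63.0% and 61.2% in occipital cortex. The mean share of gained loci was thus higher at each later stage up to frontal cortex, as was that of all loci, and that of lost loci was highest at E14.5. Over all loci the shares were 56.0% and 48.1% at E11.5 and 76.7% and 64.9% at E14.5. They were 77.8% and 79.0% in frontal cortex and 78.9% and 73.8% in occipital cortex. The E11.5 H3K27ac lists were the shortest, at 82.4 and 61.1 Mb, and constant loci had 83.4% and 77.1% there.

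H3K4me2 itself could be tested in the lists that did not choose the loci, those of E17.5 occipital cortex and E11.5 cortex. Gained loci had an H3K4me2 region in 69.7% and 88.3% of cases in the occipital replicates, against 4.33% and 18.7% at E11.5. Lost loci had one in 55.5% and 79.2% in occipital cortex, against 41.4% and 68.7% at E11.5, so those groups overlapped. Constant loci had one in 99.0% and 99.7% in occipital cortex against 86.6% and 94.5% at E11.5. Over all loci the shares were 78.6% and 89.8% in occipital cortex against 51.4% and 67.9% at E11.5. The occipital shares of gained loci were therefore below those of all loci in the same list, as were their E11.5 shares by a wider gap. The occipital lists are longer, at 109 and 158 Mb against 67.0 and 107.8 Mb at E11.5, and the part of this length in the difference was not tested.

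**Figure D4:**
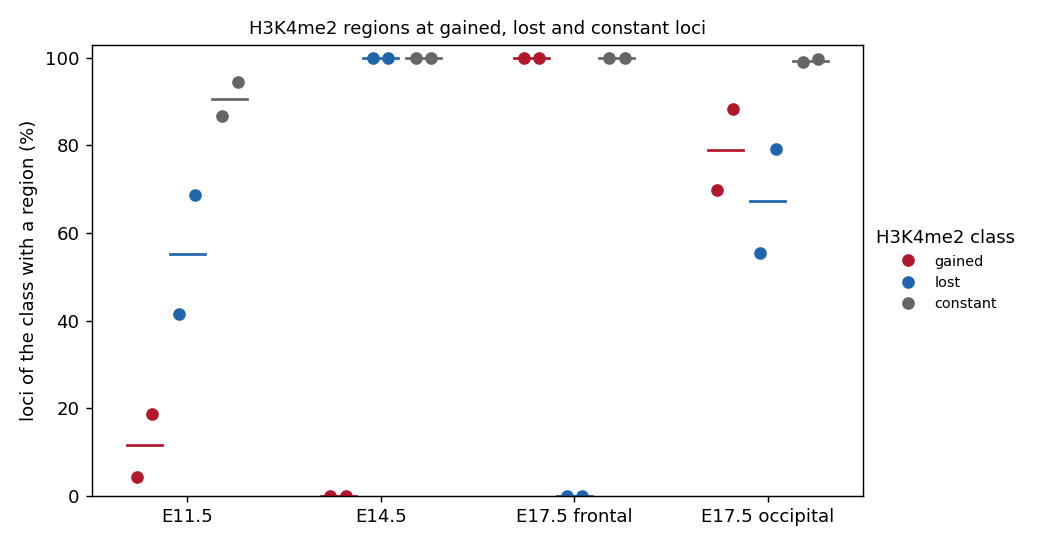
Share of gained (red), lost (blue) and constant (grey) loci with an H3K4me2 region, in % of the loci of a class, for each replicate (points) and its mean (line) in the 4 mouse tissues. The values of 0 and 100% at E14.5 and in E17.5 frontal cortex follow from the rule, whereas those of E11.5 and occipital cortex do not.

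Taken one by one, 2553 gained loci (55.0%) were in both occipital lists and in no E11.5 list, against 19.0% of all loci. Both occipital lists held 3145 gained loci (67.8%), and neither held 453 (9.76%). No E11.5 list held 3747 gained loci (80.8%). A total of 387 (8.34%) were in no occipital and no E11.5 list, which leaves the frontal lists as the only mouse tissue with H3K4me2 there. Over all loci the shares in single lists were 78.6% and 89.8% (occipital) and 51.4% and 67.9% (E11.5). The shares of all loci in both or in neither list of a tissue were not computed, so these counts are a description.

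Lost loci did not follow 1 course. Of the 611, 57 (9.33%) were in both E11.5 lists and in no occipital list, against 1.47% of all loci. Both occipital lists held 321 (52.5%), so that these lost loci lacked a region in frontal but not in occipital cortex at the same age. The occipital lists are longer, at 109 and 158 Mb against 102 and 87.2 Mb in frontal cortex, and the part of this length was not tested. Single occipital lists held 55.5% and 79.2% of lost loci, against 78.6% and 89.8% of all loci. A further description is that 117 (19.1%) were in both E11.5 and both occipital lists, as at chr7:69567402-69568975 above, and 25 (4.09%) were in neither tissue. No share over all loci was computed for these counts.

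In the limma test of occipital against E11.5 cortex, H3K4me2 was called higher at 2409 gained loci (51.9%) and lower at 9, against 18.6% higher and 0.925% lower over all loci tested. Among lost loci 110 were called higher and 58 (9.49%) lower, and with an equal number of the widest regions in each list this split turned to 38 higher and 128 lower. Without E11.5 replicate 1 the median log2 change over lost loci was -0.21. The median log2 change was 2.15 over gained loci, 0.04 over lost loci and 0.27 over all loci tested. With covered length scaled to the total of each list it was 1.96 over gained loci, -0.18 over lost loci and -0.25 over all, so lost loci did not keep a side of the median of all loci. With an equal number of the widest regions in each list the median was 0 over gained loci, 0 over lost loci and 0.086 over all, so gained loci no longer stood above all loci there. At loci in both frontal lists and 1 E14.5 list, 2106 of 6518 (32.3%) were called higher. With an equal number of the widest regions in each list, 942 gained loci (20.3%) were called higher and 41 (0.884%) lower. The shares over all loci were 12.1% and 5.09% there.

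Among the 10 widest gained loci, 5 were called higher in occipital than in E11.5 cortex. At chr4:12909001-12912275, H3K4me2 covered 3250 and 3275 bp in occipital cortex against 0 bp in both E11.5 lists, a log2 change of 4.11 (SE 0.05, limma adjusted p = 0.00028). At chr13:46027351-46030275 it covered 2425 and 2625 bp in occipital cortex against 0 bp in both E11.5 lists. Among the 10 widest lost loci 3 were called lower. At chr19:44567627-44570600 the log2 change was -3.99 (SE 0.05, limma adjusted p = 0.00028), and at chr2:18236026-18239750 it was -4.25 (SE 0.06, limma adjusted p = 0.00037). The third, chr11:80127501-80130375, had 0 bp in both occipital lists against 650 and 1300 bp at E11.5. That locus kept H3K27ac over its whole width in frontal cortex.

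Constant loci can be compared in H3K4me2 length between frontal and E14.5 cortex, since presence in all 4 lists fixes no direction. The adjustment, however, ran over gained and lost loci too, which this contrast chose, and their small p-values eased the cut for constant loci. With loci of at least 3 lists, which include no gained or lost locus, no constant locus was called. The adjusted p-values of the constant loci named below carry this limit. Of 27278 constant loci, 382 (1.40%) were called longer in frontal cortex and 20 (0.0733%) shorter, against 10.9% and 1.20% over all 43557 loci tested. The calls over all loci are mostly of gained and lost loci, which this contrast chose, so nothing is read from those shares. The median log2 change was 0.13 over constant loci and 0.19 over all. No constant locus was called with 1000 bp added in place of 200 bp, with an equal number of the widest regions in each list, with loci of any list or of at least 3 lists, with the replicate block, or without either E14.5 list. Without frontal replicate 1 there were 13 longer and 5 shorter, and without frontal replicate 2 there were 32 longer and 2 shorter. With covered length scaled to the list total the split was 102 longer to 72 shorter, and the median over constant loci turned to -0.14. In those of these fits that used all 4 lists and gave no call, between 1121 and 2675 constant loci had an unadjusted limma p below 0.05. Loci with no change pass that threshold too, at a rate of 0.05, so nothing is read from these counts.

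The constant locus with the largest lengthening lay beside a gained one. At chr1:56980876-56989625, H3K4me2 covered 7400 and 8750 bp in the frontal replicates against 1325 and 1450 bp at E14.5, a log2 change of 2.38 (SE 0.11, limma adjusted p = 0.021). It ends 1475 bp before the gained locus at chr1:56991101-56996750 that had no H3K27ac region in any list. At chr3:81934501-81950675, H3K4me2 covered 15325 and 15950 bp in frontal cortex against 2850 and 3750 bp at E14.5 (log2 change 2.19, SE 0.16, limma adjusted p = 0.021). H3K27ac there covered 12400 and 16050 bp in frontal cortex against 3950 and 2450 bp at E14.5, so both marks were longer in both frontal lists.

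At chr3:68396601-68399625, H3K4me2 covered 2700 and 3025 bp in frontal cortex against 500 and 525 bp at E14.5. At chr12:51181551-51186200 it covered 4650 and 3825 bp in frontal cortex against 550 and 1075 bp at E14.5. Both were called longer (limma adjusted p = 0.021 and 0.044). At chr2:173065776-173071725 the values were 4625 and 4250 bp in frontal cortex against 575 and 1275 bp at E14.5, and the adjusted limma p of 0.065 did not pass.

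In the other direction, chr19:25676451-25693400 had 3350 and 3275 bp of H3K4me2 in frontal cortex against 11900 and 16950 bp at E14.5, a log2 change of -2.04 (SE 0.21, limma adjusted p = 0.021). H3K27ac at this locus covered 1175 and 0 bp in frontal cortex against 14700 and 11750 bp at E14.5. At chr19:60219926-60225900, H3K4me2 covered 2150 and 1350 bp in frontal cortex against 5575 and 5925 bp at E14.5 (log2 change -1.64, SE 0.24, limma adjusted p = 0.042), with 0 and 1000 bp of H3K27ac in frontal cortex against 5750 and 5325 bp at E14.5. At chr11:94816251-94820250 the H3K4me2 values were 1150 and 825 bp in frontal cortex against 3750 and 4000 bp at E14.5, and it was called shorter (limma adjusted p = 0.021). The loci at chr2:37990751-38000975 and chr17:3689926-3693450 were also shorter in both frontal lists but were not called (limma adjusted p = 0.35 and 0.27). Among the 10 constant loci named here the stages did not overlap in H3K4me2 at any, which follows in part from choosing them by the size of the change.

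Gained and lost loci were spread over all 19 autosomes in different proportions. The share of loci gained ran from 5.18% on chromosome 11 and 5.94% on chromosome 19 to 9.77% on chromosome 3 and 9.98% on chromosome 16. The share lost ran from 0.60% on chromosome 14 to 1.59% on chromosome 17 and 2.11% on chromosome 11. Chromosome 11, lowest in gained and highest in lost loci, also had the highest share of constant loci, 59.2%, against 40.7% on chromosome 1. These are descriptions over loci, with no test.

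**Figure D5:**
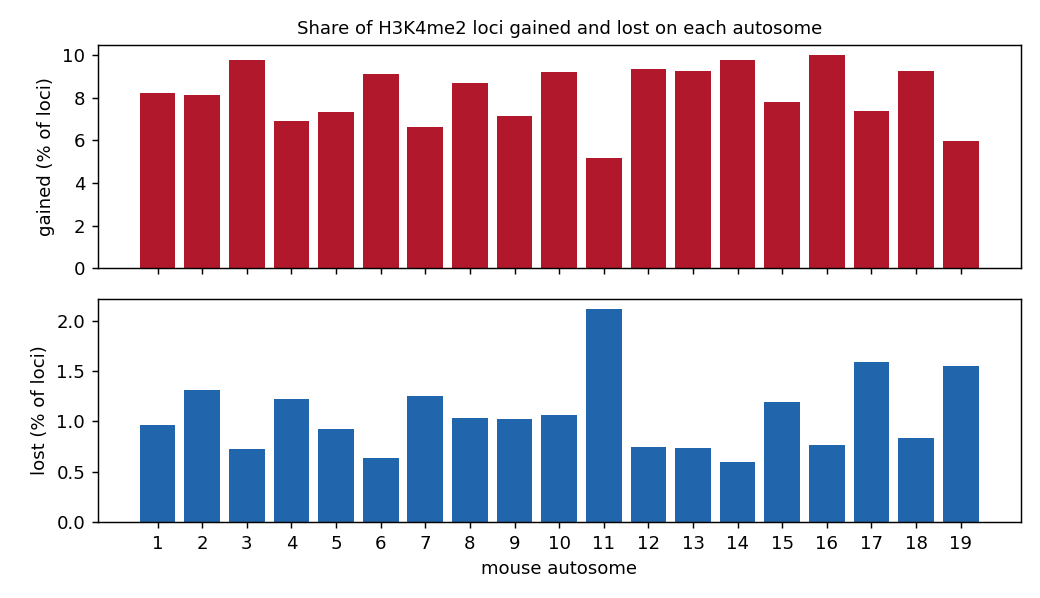
Share of the H3K4me2 loci of each mouse autosome that were gained (upper, red) and lost (lower, blue) in E17.5 frontal against E14.5 cortex, in % of the loci on that chromosome. Chromosome 11 had 5.18% gained and 2.11% lost.

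Gained and lost loci differed in their distance from constant ones, which is given with no test. The median gap to the nearest constant locus was 24338 bp for gained and 16375 bp for lost loci. Within 5 kb of a constant locus were 14.504% of gained and 22.1% of lost loci, and beyond 100 kb were 13.6% of gained and 7.69% of lost loci. Loci just outside the rule had medians of 20887.5 bp (both frontal lists and 1 E14.5 list) and 13900 bp (both E14.5 lists and 1 frontal list).

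Some gained loci lay in runs. With neighbours joined when they were at most 50 kb apart, 132 runs held 3 or more gained loci and together contained 440 of them (9.48%), 9 runs held 5 or more, and the longest held 6. Lost loci, which were fewer, formed runs of at most 2. The 6-locus runs were singled out after their values were seen. At chr13:45916001-46030275 the run spanned 7 loci, none of them constant, and H3K4me2 covered 12475 and 7950 bp in frontal cortex against 0 bp in both E14.5 lists. H3K27ac covered 12826 and 11600 bp of these loci in frontal cortex against 3675 and 2500 bp at E14.5.

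The run at chr3:152528826-152633425 spanned 9 loci, none constant, with 10425 and 7525 bp of H3K4me2 in frontal cortex against 0 bp in both E14.5 lists. Its H3K27ac covered 10726 and 11900 bp in frontal cortex against 7925 and 3550 bp at E14.5. H3K27ac did not overlap between the stages in either run, and in both it was present at E14.5 where H3K4me2 was not called. The lack of H3K4me2 at E14.5 follows largely from the rule, since the runs are made of gained loci. How often H3K27ac values do not overlap over all loci was not computed. The remaining 6-locus run, at chr12:107520526-107638150, spanned 14 loci of which 2 were constant, with 17600 and 13575 bp of H3K4me2 in frontal cortex against 4775 and 10000 bp at E14.5. Its H3K27ac covered 21075 bp in both frontal lists against 19500 and 14950 bp at E14.5, closer between the stages than in the other runs.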

How the data were processed

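Region lists of H3K4me2 and H3K27ac from mouse cortex were analysed, 16 in all, each with 3 columns (chromosome, start and end in bp) as deposited by the authors and with no read count or signal. The submitters' processing notes name Bowtie 0.12.9 and 2 builds, hg19 and mm9. No source used here gives the region caller or its threshold. The lists were taken as mm9. Starts lie on a 25-bp grid, offset by 1 bp in 2 lists (E14.5 H3K4me2 replicate 1 and frontal H3K27ac replicate 1), and neighbouring regions are at least 1025 bp apart. Whether those 2 lists, of which the first is also the shortest H3K4me2 list compared, were called like the others is not known. Read depth is unknown, so no counting interval was computed.

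From the files, overlapping regions of the 4 H3K4me2 lists were merged into autosomal loci, and the covered bp of every list was summed within each locus, with an overlap of at least 1 bp counted as present. In R 4.3.3, the lmFit and trended eBayes functions of limma 3.58.1 were run on log2(covered bp + 200) over loci in at least 2 of the 4 H3K4me2 lists, with a mean per tissue, Benjamini-Hochberg adjustment over all loci tested and a threshold of 0.05. The log2 changes understate the change of short loci. The H3K4me2 contrast of frontal against E14.5 cortex chose the gained and lost loci, so no test of it is reported for them. Shares were compared by exact two-sided permutation of the lists. The other steps used Python 3.11.15 (pandas 2.3.3, numpy 2.4.6, scipy 1.17.1, and matplotlib 3.10.9 for plots), and the locus steps and the fit were tested on simulated data.

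Named loci were the 10 widest gained and 10 widest lost loci by the lower covered length of their 2 lists, the 5 gained and 5 lost loci with the largest difference in mean H3K27ac length, and the 5 constant loci with the largest log2 change in each direction, with none named on chromosome 18. The members and lists were chosen with earlier results of these data known. The alternatives were another pseudocount, the replicate block, other filters on loci, scaling to list totals, equal list lengths, merging over 1000 bp, minimum widths, an overlap of 50%, all 8 lists in the fit and leaving out each list. Gene names were not assigned because the only gene table used is on GRCm38, so the planned gene lists, the promoter split and sequences were not used here.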

Additional observations from a re-analysis of the deposited data

How the results depend on the processing

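The lists carry no depth, which limits every statement here to the presence and length of called regions. Merging regions up to 1000 bp apart left 4579 gained and 608 lost loci. The numbers ran from 5000 to 10862 gained and from 737 to 5669 lost when 1 list was left out, were 2429 and 146 with regions of at least 1000 bp, and were 1932 and 1312 with equal list lengths. The H3K4me2 test of frontal against E14.5 cortex called 4732 loci higher and 521 lower, numbers that the choice of gained and lost loci on the same lists largely fixes, and 0 in either direction, constant loci included, with a pseudocount of 1000 bp, the replicate block, a crossed replicate block, loci of any list, loci of at least 3 lists, or equal list lengths. At an unadjusted p below 0.05 those fits gave 2398 to 8280 loci. Nothing is read from these counts, since unchanged loci pass at a rate of 0.05. Except with loci of at least 3 lists, they also include gained and lost loci, which this contrast chose. Scaling to the list total gave 102 constant loci higher and 72 lower, and all 8 lists in the fit gave 335 loci lower and 30 constant ones. Leaving out 1 list gave 0 to 4672 loci higher and 0 to 69 lower, with 0 to 32 constant loci higher and 0 to 5 lower. The 7 called constant loci named above lost their call in each of those fits with no call and without either E14.5 list, 4 lost it without either frontal list, and 1 with all 8 lists in the fit.

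For H3K27ac the replicate block gave 0 calls in each class and in all loci, where 3033 loci had an unadjusted p below 0.05. Over all loci, 1772 were higher and 484 lower with loci of any list, 239 and 102 with loci of at least 3 lists, 154 lower with scaling, 455 lower with equal lengths, 156 lower with all 8 lists and 135 lower without loci that had no H3K27ac region. Leaving out 1 list gave 1002 to 4299 higher and 472 to 1113 lower. Gained loci higher ran from 463 to 1308 and lower from 2 to 54 without 1 list, with 6 lower at equal lengths. Lost loci higher were 0 at equal lengths and without empty loci, and 0 to 16 without 1 list. Lost loci lower were 18 with scaling, 56 at equal lengths and 37 to 92 without 1 list. Scaling moved the median log2 change over all loci to -0.32 for H3K27ac and to -0.06 for H3K4me2.

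For occipital against E11.5 cortex, equal lengths gave 942 gained loci higher and 41 lower, 38 lost loci higher and 128 lower, and 5258 and 2219 over all loci. Loci of at least 3 lists gave 4469 higher and 207 lower, loci of any list 952 lower, the replicate block 203 lower and all 8 lists 131 lower. Leaving out 1 list gave 1625 to 3291 gained loci higher, 7 to 65 lower, 80 to 156 lost loci higher, 39 to 84 lower, and 7571 to 19835 higher and 236 to 905 lower over all loci. The difference in H3K27ac share ran from 23.7 to 44.9 points at gained loci, from -25.4 to -7.53 at lost loci and from -2.28 to 4.85 at constant loci when 1 list was left out, and with equal lengths it was -26.4 points at lost and -1.87 at constant loci. H3K27ac at chr11:5155077-5157276, with a log2 change of 0.12, turned to -0.26 with scaling and ran from -0.046 (without E14.5 replicate 2) to 0.29 when 1 list was left out. Same-numbered lists deviated with correlations of -0.17 for H3K4me2, -0.06 for H3K27ac and 0.07 for the occipital contrast. These values cannot show whether lists of the same number were handled together. The cause of these moves was not tested. Loci of at least 3 lists include no gained or lost locus, so that filter gave no value for them.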
